A study of Oryza sativa with 81 samples.

Results

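The 60 genes described here are rice gene models whose read counts differed in 1 direction between the parental lines WFB and RFB in seedlings and in both panicle stages (young and filling). They were chosen by a ranking of the WFB and RFB libraries of these same data. Of the 35403 gene models outside identifier blocks 00 and 06, 14078 reached a CPM of 2 (counts scaled to a common library size, with block 00 left out) in WFB or RFB in each of the 3 tissues. The sign of the difference was the same in the 3 tissues for 2419 of these. Each gene was scored by the smallest absolute value of log2((WFB + 0.5)/(RFB + 0.5)) over the tissues, and the 60 with the highest scores were taken, out of 38714 gene models in the table. Because the ranking used WFB and RFB, the difference between these lines is given below as a description, and calls of a model for it are printed as counts from which nothing is read. The tests compare hybrids, or parental lines, that the ranking did not use. The WFB and RFB libraries still entered the scaling and the estimate of spread in those fits.

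RNA from 9 lines of field-grown Oryza sativa was sequenced in a study on heterosis, with 3 libraries for each line and tissue and 81 in all. The parents were WFB, RFB, R998 and R308. The first-generation hybrids were WY998 (WFB with R998), WY308 (WFB with R308), RY998 (RFB with R998), RY308 (RFB with R308) and WR (WFB with RFB). The labels name no treatment beyond field growth and do not say that replicates came from separate plants, so p-values cover only the spread between these libraries.

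A first-generation hybrid receives 1 set of chromosomes from each parent, so a gene that only 1 parent carries comes to the hybrid from that parent alone. Heterosis is the advantage of such a hybrid over its parents, and differences in gene content and in gene expression between rice parents have long been studied beside it. A transcript level between those of the parents is called additive, and a level beyond either parent is called transgressive. The deposited files do not pair the identifiers with gene names, and none was found in the RefSeq gene table, so what the 60 genes encode is not stated. The first 2 digits of an identifier are called its block here.

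Libraries held 29054241 to 45765805 counts. Block 00 took 43.8% to 56.6% of them in young seedlings, so CPM values here are scaled to the counts outside block 00, of which there were 13433773 to 41754366 in a library. A level of 3 counts then stands at 0.0718 to 0.223 CPM in a library, which covers counting error only. The R308 crosses differed far more than the R998 crosses in young panicles. There WY308 and RY308 differed in 28.8% of all genes tested, against 0.382% for WY998 and RY998. In filling panicles the shares were 14.6% and 9.75%, and in young seedlings 0.437% and 1.25%. Tissue samples hold many cell types, and fewer cells of a type and less RNA per cell cannot be told apart.

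Of the 60 genes, 36 were higher in WFB and 24 were higher in RFB. The smallest absolute log2 difference over the tissues ran from 5.09 down to 0.354. The last gene taken, OsR498G0408428400.01, had log2 differences of -0.35, -0.45 and -0.37 in seedlings, young panicles and filling panicles. The first gene left out, OsR498G0306914200.01, had -0.35, -0.99 and -0.56, so the list has no gap at its end. The difference was at least 2-fold in every tissue for 18 genes, 13 of them higher in WFB and 5 higher in RFB. The same model that was used for the tests below called 36, 54 and 30 of the 60 between WFB and RFB in seedlings, young panicles and filling panicles, where 1.78%, 21.5% and 0.71% of all genes tested were called. As the ranking used this contrast, nothing is read from these counts.

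In 8 of the 60 genes the lower parent stood under 10% of the higher one in every tissue, and these 8 show most plainly how the crosses behaved. They are 6 genes higher in WFB and 2 higher in RFB, and each had a pattern over the other 7 lines that the ranking had not seen. Near-absence of counts does not tell a silent gene from a missing one or from one whose reads could not be counted, since 1 set of gene models served every line.

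**Figure D1:**
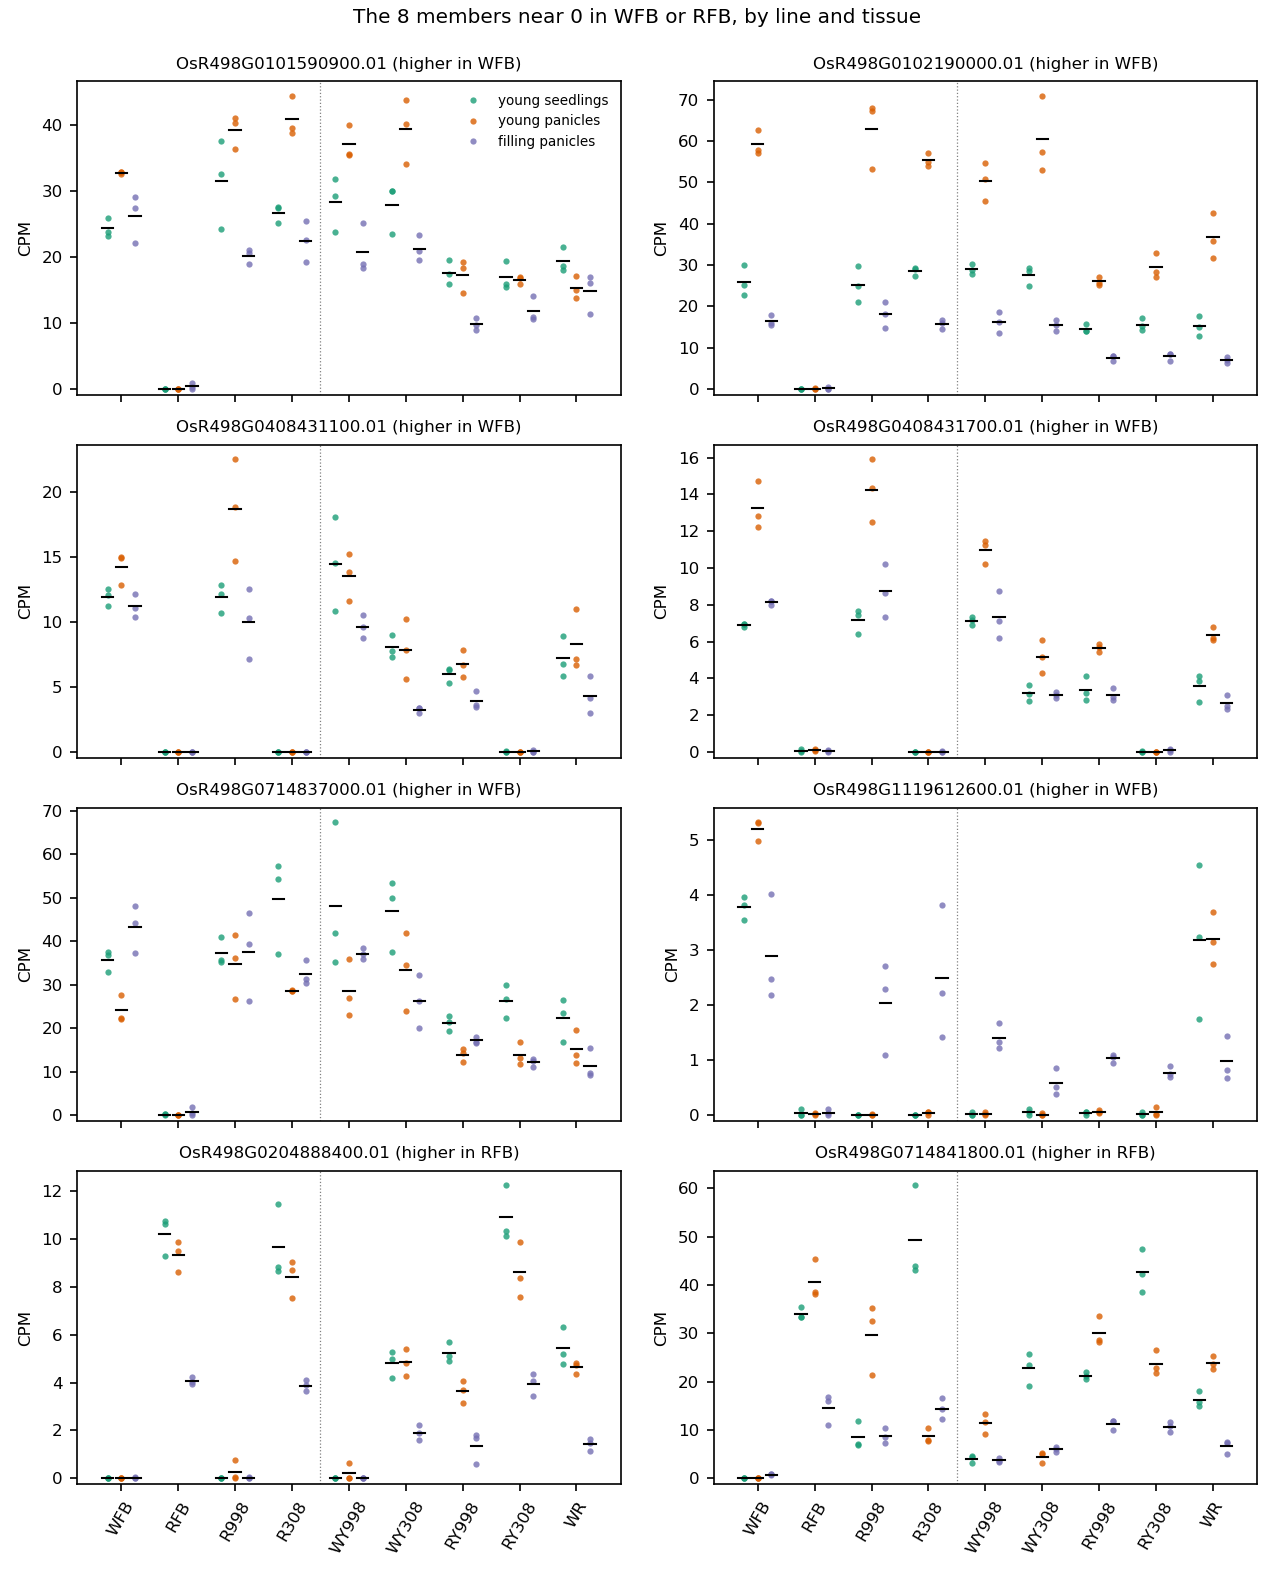
CPM (y axis, linear, scale differs between panels) of the 8 genes near 0 in WFB or RFB, for 9 lines (x axis, parents left of the dotted line) and 3 tissues (colours). Points are libraries and bars are means of 3. The 3 genes near 0 only in RFB among the parents had intermediate levels in RY998, RY308 and WR, whereas OsR498G0408431100.01, OsR498G0408431700.01 and OsR498G0204888400.01 were near 0 in both parents of 1 cross.

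In 3 of the 8 genes, RFB alone was near 0. OsR498G0714837000.01, which ranked first by its smallest difference over the tissues, stood at 32.8, 36.8 and 37.5 CPM in the WFB seedling libraries and at 0.0554, 0.183 and 0.167 in RFB. R998 stood at 35.2, 40.9 and 35.6 and R308 at 37.2, 57.3 and 54.3, so neither of the other parents shared the low level of RFB. The hybrids of RFB held 19.4 to 22.7 CPM in RY998, 22.3 to 30.0 in RY308 and 16.7 to 26.6 in WR. The hybrids of WFB held 35.3 to 67.3 in WY998 and 37.5 to 53.3 in WY308. No RY library overlapped a WY library, and the log2 difference of WY over RY was 1.03 (SE 0.15), with an adjusted p of 0.000195 by edgeR's quasi-likelihood test. The same gene gave 1.19 (SE 0.13) in young panicles and 1.04 (SE 0.21) in filling panicles, with edgeR adjusted p of 5.69e-07 and 0.0271.

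OsR498G0101590900.01 and OsR498G0102190000.01 followed the same course. OsR498G0101590900.01 stood at 32.9, 32.6 and 32.8 CPM in the young panicles of WFB and at 0.0312, 0.0624 and 0 in RFB. RY998 held 19.2, 14.5 and 18.3, RY308 held 16.8, 15.9 and 16.9, and WR held 13.8, 17.1 and 14.9, all below every library of WY998 (35.5, 35.6 and 40.02) and WY308 (40.1, 43.8 and 34.1). OsR498G0102190000.01 stood at 57.8, 57.0 and 62.7 CPM in WFB, at 0.0625, 0.0936 and 0.148 in RFB and at 25.2 to 27.1 in RY998. Its levels in RY308 were 28.3, 27.1 and 32.9, and those in WR were 31.6, 42.5 and 35.9. Each RFB hybrid thus stood between its parents in every library of this tissue.

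The RFB libraries were not equally empty of these 3 genes in filling panicles. RFB replicate 9 held 1.84 CPM of OsR498G0714837000.01, 0.85 of OsR498G0101590900.01 and 0.531 of OsR498G0102190000.01, which is 4.26%, 3.25% and 3.25% of the WFB mean. RFB replicate 7 held 0.0724, 0 and 0.0362 CPM. The same replicate 9 had no count of OsR498G0408431100.01 or OsR498G0408431700.01. Whether these counts came from the RFB plants was not tested.

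A second pair of genes was at or near 0 in RFB and in R308 alike. OsR498G0408431100.01 stood at 11.3, 12.1 and 12.5 CPM in WFB seedlings and at 12.2, 12.9 and 10.7 in R998. RFB and R308 had no count in any of their 3 libraries, where 3 counts over the group correspond to 0.0572 and 0.0558 CPM. WY998, with both parents expressing the gene, held 18.1, 14.6 and 10.9 CPM, while WY308 held 9.05, 7.82 and 7.35, RY998 held 6.30, 6.41 and 5.28, and WR held 6.80, 5.88 and 8.97. RY308, with neither parent expressing it, had 0, 0 and 0.0620 CPM, the last from 1 count. The 3 hybrids with 1 expressing parent therefore stood together, below WY998 and above RY308 with no overlap.

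OsR498G0408431700.01, the neighbour of that gene in identifier order, repeated the pattern in every tissue. In filling panicles it stood at 8.001, 8.20 and 8.23 CPM in WFB and 8.64, 10.2 and 7.33 in R998, at 0.0362, 0.0993 and 0 in RFB and at 0, 0.0347 and 0 in R308. WY998 held 6.18, 7.10 and 8.73 CPM, WY308 held 3.26, 2.95 and 3.09, RY998 held 2.84, 3.47 and 2.97, and WR held 2.33, 2.49 and 3.11. RY308 held 0, 0.168 and 0.114 CPM. The order of the lines was again both parents, 1 parent, neither, without overlap between these classes.

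OsR498G0204888400.01 showed the mirror image, with RFB and R308 as the expressing parents. Its seedling level was 9.30, 10.8 and 10.6 CPM in RFB and 11.5, 8.65 and 8.81 in R308, with no count in WFB, R998 or WY998. RY308 held 12.2, 10.1 and 10.4, WY308 held 4.98, 4.20 and 5.26, RY998 held 4.91, 5.13 and 5.71, and WR held 4.79, 6.31 and 5.19. In young panicles 1 library of R998 (replicate 4, 0.747 CPM) and 1 of WY998 (replicate 6, 0.653 CPM) had counts, while WFB had none. All libraries of the hybrids with 1 expressing parent lay between the empty lines and RY308 in these tissues.

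OsR498G0714841800.01 was near 0 in WFB but varied between R998 and R308 in a way that turned with the tissue. In seedlings R998 held 7.15, 11.8 and 6.82 CPM and R308 held 43.1, 60.6 and 44.0. In young panicles R998 held 32.5, 35.2 and 21.4 and R308 held 7.93, 7.80 and 10.3. Which of the lines was higher thus reversed between seedlings and young panicles, without overlap in either. Against R308, R998 was lower by a log2 difference of -2.50 (SE 0.19) in seedlings and -0.80 (SE 0.14) in filling panicles, and higher by 1.72 (SE 0.16) in young panicles, with edgeR adjusted p of 1.43e-09, 0.000197 and 2.55e-08. The WFB hybrids followed these parents: in seedlings WY998 held 4.47, 4.64 and 3.06 CPM and WY308 held 25.7, 19.1 and 23.4, and in young panicles WY998 held 9.13, 11.6 and 13.4 and WY308 held 5.25, 4.92 and 3.22.

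OsR498G1119612600.01 departed from the other 7 genes and was singled out after its values were seen. In seedlings it stood at 3.54, 3.82 and 3.96 CPM in WFB and at 3.24, 4.55 and 1.75 in WR. The other WFB hybrids had at most 0.0514 CPM in WY998 and 0.115 in WY308, although WFB is a parent of both. Whether the sequenced WFB plants and the WFB parents of each hybrid came from 1 seed stock is not given in the sources used here, which bears on every comparison of WFB with its hybrids. R998 and R308 had no count, and RFB had 0, 0 and 0.112 CPM. In young panicles WFB held 5.32, 5.31 and 4.98 and WR held 2.75, 3.69 and 3.15, against at most 0.0578 in WY998 and 0.0317 in WY308. In filling panicles R998 (2.29, 2.71 and 1.1001) and R308 (2.21, 1.42 and 3.81) had counts, and so did every hybrid library, from 0.383 in WY308 to 1.67 in WY998.

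For the 7 genes other than OsR498G1119612600.01, the mean of each hybrid was set beside the arithmetic mean of its own parents wherever that mid-parent exceeded 0.5 CPM. The 32 values had a median of 107% of the mid-parent in seedlings (92.4% to 159%), 96.5% in young panicles (72.3% to 127%) and 85.4% in filling panicles (51.9% to 111%). Between 80% and 120% of the mid-parent lay 25, 22 and 18 of the 32. The highest value was WR in seedlings for OsR498G0101590900.01 and the lowest was WR in filling panicles for OsR498G0714837000.01. No TMM scaling entered these percentages, and their dependence on it was not tested.

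Crosses of WFB and of RFB with the same R998 and R308 ask whether the parental difference is carried into hybrids. WY998 and WY308 were compared with RY998 and RY308 as the difference of their mean log2 levels. Called genes had an adjusted p under 0.05 over all genes tested, and all 60 passed the filter on low counts in every tissue. With the sign of the parental difference, 23, 33 and 18 of the 60 were called in seedlings, young panicles and filling panicles, where 1.92%, 14.8% and 0.353% of all genes tested were called with the sign of their own WFB to RFB difference. Among the genes that met the level minimum these shares were 1.84%, 16.1% and 0.206%. The called genes higher in WFB numbered 14, 23 and 13 of 36, and those higher in RFB numbered 9, 10 and 5 of 24.

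Whether called or not, the log2 difference between WY and RY had the parental sign in 56, 51 and 56 of the 60. Its median towards the higher parent was 0.46, 0.40 and 0.40. The median absolute difference was 0.47, 0.48 and 0.42 for the 60 and 0.11, 0.16 and 0.11 for all genes tested. In 4, 3 and 1 genes a hybrid line had 3 counts or fewer, and setting these to 3 counts left the medians the same to 2 decimals. In all 3 tissues 14 genes were called, in at least 1 tissue 39, and in none 21. The shares of all genes tested that met these joint conditions were not computed, so nothing is read from these 3 counts. Of the 18 genes with a parental difference of at least 2-fold everywhere, 12, 15 and 14 were called, and of the other 42 genes 11, 18 and 4. This split was made on the values that ranked the genes, and the difference between the groups was not tested.

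**Figure D2:**
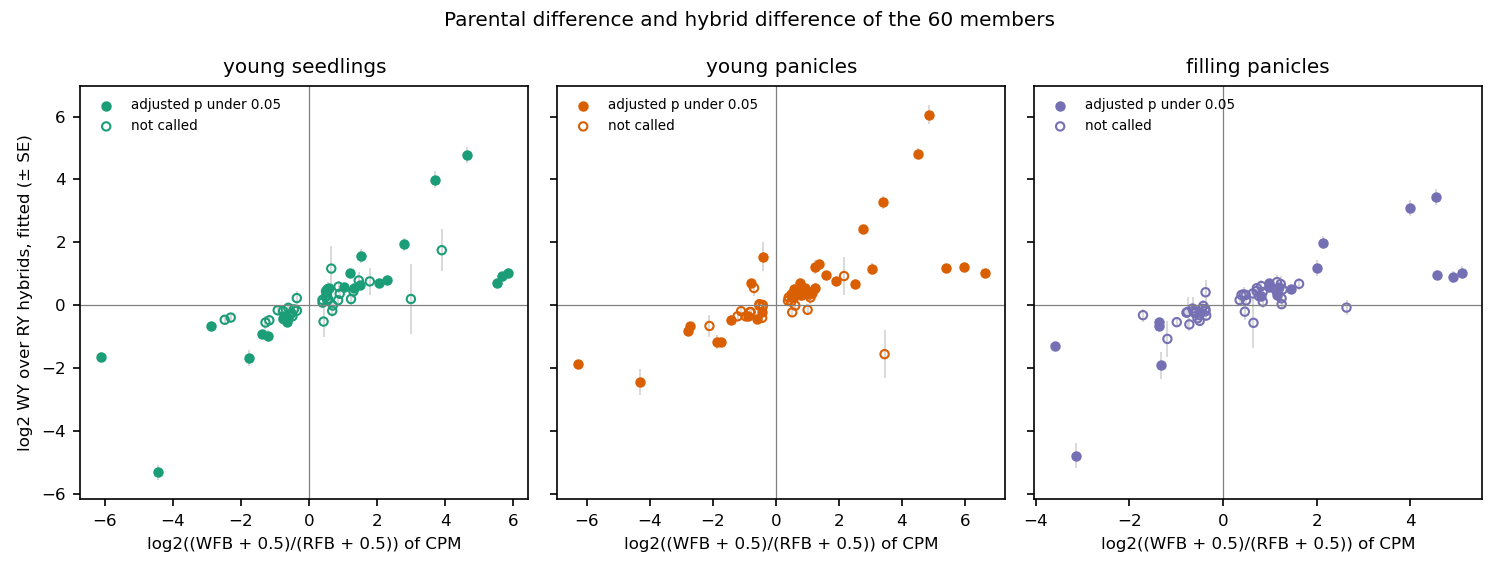
Log2 difference of WFB over RFB that chose the genes (x axis, from CPM with 0.5 added) against the fitted log2 difference of the WY over the RY hybrids (y axis, with SE) for the 60 genes in each tissue. Filled points have an edgeR adjusted p under 0.05. Of the 60 points, 56, 51 and 56 share the parental sign, and the points beyond 3 on the y axis include genes at or near 0 in 1 hybrid line, whose fitted value depends on the prior count.

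Among the genes of seedlings whose 6 WY and 6 RY libraries did not overlap, OsR498G0408431100.01 and OsR498G0306131200.01 had the largest differences towards WFB. OsR498G0408431100.01 was called with an edgeR adjusted p of 6.28e-10, on the levels given above. OsR498G0306131200.01 stood at 10.476, 8.54 and 9.37 CPM in WY998 and 11.7, 8.97 and 10.9 in WY308, against 2.51, 1.63 and 2.004 in RY998 and 2.49, 2.83 and 4.77 in RY308. The log2 difference was 1.94 (SE 0.21, edgeR adjusted p 3.48e-06).

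Of the genes higher in the RFB crosses of seedlings, OsR498G0101583100.01 stood at 13.2, 15.0 and 14.7 CPM in WY998 and 16.045, 16.3 and 14.6 in WY308. RY998 held 28.8, 32.7 and 21.9 and RY308 held 29.5, 26.1 and 29.6, again with no overlap (log2 -0.90, SE 0.11, edgeR adjusted p 1.14e-05). OsR498G1018865300.01 stood at 2.67, 4.13 and 2.64 CPM in WY998 and 2.54, 4.20 and 3.77 in WY308. RY998 held 4.33, 5.13 and 6.25 and RY308 held 9.47, 6.73 and 8.37, so the groups stood apart by little (log2 -0.97, SE 0.19, edgeR adjusted p 0.00493).

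In young panicles OsR498G0714931500.01 was a gene of WFB and its crosses. WFB held 7.52, 7.73 and 8.03 CPM, and RFB, R998 and R308 held 0.125 to 0.550. WY998 held 3.88, 3.44 and 3.98, WY308 held 5.35, 4.13 and 3.07, and WR held 4.68, 4.39 and 3.89, between the WFB libraries and all others. RY998 held 0.333, 0.394 and 0.427 and RY308 held 0.413, 0.265 and 0.666. The log2 difference of WY over RY was 3.28 (SE 0.21, edgeR adjusted p 6.21e-11), and in filling panicles it was 1.99 (SE 0.19, edgeR adjusted p 1.43e-06). In young panicles the R998 crosses alone gave 3.29 (SE 0.30) and the R308 crosses 3.27 (SE 0.29).

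OsR498G0306190000.01 behaved likewise in young panicles. WFB held 9.99, 12.3 and 10.993 CPM, and the other parents held 0.561 to 1.30. WY998 held 4.84, 4.62 and 7.70, WY308 held 5.66, 5.59 and 5.87, and WR held 5.24, 5.54 and 4.88. RY998 (1.15, 1.24 and 0.703) and RY308 (1.05, 1.15 and 1.30) stood at the level of RFB. The log2 difference of WY over RY was 2.42 (SE 0.14, edgeR adjusted p 1.63e-11).

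Towards RFB, OsR498G0714841800.01 had the largest difference without overlap in young panicles, with RY998 at 28.1, 28.5 and 33.6 CPM and RY308 at 21.7, 22.9 and 26.6 (log2 -1.87, SE 0.12, edgeR adjusted p 5.58e-11). In filling panicles its log2 difference was -1.28 (SE 0.10, edgeR adjusted p 6.36e-08). OsR498G0204951800.01 followed, at 5.11, 4.73 and 4.95 CPM in RY998 and 3.41, 3.79 and 3.62 in RY308 against 1.14 to 2.38 in the WY libraries (log2 -1.18, SE 0.22, edgeR adjusted p 0.000661). R308 had no count of this gene in seedlings or young panicles. In filling panicles the WY libraries held 0.236 to 1.06 CPM and the RY libraries 1.18 to 3.14, without overlap, but the edgeR adjusted p was 0.0496 and the call was lost in 15 of the alternatives, among them each of the 12 fits without 1 hybrid library, with edgeR adjusted p of 0.05 to 0.163 over the 15.

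OsR498G0203190000.01 had the second largest difference towards WFB among the genes without overlap in filling panicles. WY998 held 4.01, 5.61 and 5.03 CPM and WY308 held 2.62, 2.78 and 7.54, against 1.62, 1.88 and 1.71 in RY998 and 2.30, 1.92 and 2.45 in RY308. The groups did not overlap, though WY308 came near RY308 (log2 1.19, SE 0.25, edgeR adjusted p 0.0290). Without WY308 replicate 9, the single high library, the log2 difference was 0.80 with an edgeR adjusted p of 0.0647. The call was also lost when only hybrids entered the fit (edgeR adjusted p 0.233) and without WY998 replicate 8, RY998 replicate 7, 8 or 9, or RY308 replicate 7 or 8 (0.0695 to 0.107). In seedlings the same gene was far more abundant, at 92.4 to 128 CPM in the WY libraries and 56.6 to 76.3 in the RY libraries (log2 0.72, SE 0.09, edgeR adjusted p 2.56e-05).

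Against the parental sign, 2 of the 60 genes were called in young panicles, where 5.56% of all genes tested were, and none in the other tissues. Both were higher in RFB than in WFB, and in both the RY308 libraries lay below all those of WY308. OsR498G0714935100.01 stood at 162, 147 and 142 CPM in RY308, against 518, 438 and 427 in RY998, 473, 397 and 401 in WY998 and 341, 422 and 472 in WY308. WFB held 110 to 123, RFB 184 to 219 and WR 127 to 155, while R998 held 462 to 559 and R308 407 to 439, so RY308 stood below both of its parents and overlapped WR. The log2 difference of WY over RY was 0.71 (SE 0.09, edgeR adjusted p 7.44e-06) over both crosses, -0.10 (SE 0.13) in the R998 crosses alone and 1.52 (SE 0.14) in the R308 crosses. In filling panicles the crosses went opposite ways, at -0.81 (SE 0.14, edgeR adjusted p 0.000435) with R998 and 0.56 (SE 0.14, edgeR adjusted p 0.00899) with R308.

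OsR498G1018865300.01, the other such gene, stood at 0.935, 1.56 and 0.579 CPM in RY308 and at 14.6, 5.11 and 2.65 in WY308. WY998 held 4.40, 2.23 and 11.3 and RY998 held 6.77, 7.30 and 1.46, which overlap widely, and RY998 replicate 6 lay within the RY308 libraries. WR was as low, at 1.46, 1.65 and 0.247. Its log2 difference was 1.55 (SE 0.47, edgeR adjusted p 0.0225), and the call was lost when only hybrids entered the fit and without WY998 replicate 6, WY308 replicate 4, RY998 replicate 6, RY308 replicate 4 or RY308 replicate 6, with edgeR adjusted p of 0.0533 to 0.1.

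Cross by cross, the parental difference was called in both the R998 and the R308 crosses for 13, 16 and 11 of the 60. Of all genes tested, 0.23%, 0.292% and 0.17% were called so. In all 3 tissues it was called in both crosses for 6 genes, a condition for which no share over all genes was computed. In the R998 crosses alone 17, 18 and 23 of the 60 were called with the parental sign and 0, 0 and 1 against it, where 1.25%, 0.382% and 9.75% of all genes tested were called in either direction. In the R308 crosses alone 16, 29 and 22 were called with the parental sign and 0, 2 and 1 against it, where 0.437%, 28.8% and 14.6% were called. The contrast behind the young panicle count of 18 in the R998 crosses leaves out WY308 and RY308. Their libraries still entered the scaling and the estimate of spread of that fit.

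The size of the log2 difference was tested between the R998 and the R308 crosses by an interaction term. It was called for 4, 6 and 15 of the 60 in the 3 tissues, in the same order, where 0.0919%, 10.7% and 21.3% of all genes tested were called. In seedlings the 4 genes were OsR498G0408431100.01, OsR498G0408431700.01, OsR498G0204888400.01 and OsR498G0714841800.01. All 4 also differed between R998 and R308 there, which held for 12 of the 60. In young panicles 5 of the 6 interaction genes also differed between R998 and R308, out of 15 that did, and in filling panicles 5 of 15, out of 14 that did. The counts in the panicles stood near the background of all genes.

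In filling panicles OsR498G0306830400.01 stood at 9.76, 9.92 and 12.7 CPM in WY998 against 4.17, 4.29 and 5.28 in RY998, but at 9.38, 7.15 and 6.25 in WY308 against 6.62, 5.95 and 8.93 in RY308. The first pair did not overlap and the second did, and the interaction was 1.06 (SE 0.19, edgeR adjusted p 0.000248). OsR498G0408683900.01 went opposite ways in the crosses of filling panicles. It stood at 8.61, 11.1 and 12.8 CPM in WY998 and 13.004, 18.5 and 14.8 in RY998, against 20.04, 13.7 and 12.7 in WY308 and 3.91, 4.27 and 5.71 in RY308. Its interaction was -2.33 (SE 0.26, edgeR adjusted p 4.41e-07).

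R998 and R308, which the ranking did not use, differed in 12, 15 and 14 of the 60 in seedlings, young panicles and filling panicles, where 15.6%, 26.1% and 21.2% of all genes tested were called. The shares of the 60 are close to these backgrounds. Among genes of at least 5 CPM without overlap, the largest differences with R998 higher were those of OsR498G0408431100.01 and OsR498G0408431700.01 in each tissue. With R308 higher, OsR498G0204888400.01 and OsR498G0714841800.01 led in seedlings.

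OsR498G0713384500.01 was higher in R308 in the panicles. In young panicles R998 held 3.90, 5.77 and 5.82 CPM and R308 held 17.2, 8.22 and 16.2, without overlap (log2 -1.47, SE 0.28, edgeR adjusted p 0.000496). In filling panicles R998 held 18.2, 20.2 and 16.6 and R308 held 26.8, 49.6 and 26.96 (log2 -1.02, SE 0.24, edgeR adjusted p 0.00339), without overlap. Without R308 replicate 8 the log2 difference was -0.54 with an edgeR adjusted p of 0.059, and with R998 and R308 alone in the fit it was -1.04 with an edgeR adjusted p of 0.0957. In seedlings this gene had single high libraries: 43.3 CPM in R308 replicate 3, 45.7 in WY998 replicate 2 and 46.7 in WY308 replicate 3, where the other libraries of these lines held 3.57 to 5.23. WFB held 91.9 to 101 and WR 24.8 to 44.1 there.

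Each of R998 and R308 was also assigned to WFB or RFB, whichever had the nearer level on log2(CPM + 0.5). In all 3 tissues both lines were nearer WFB in 13 genes and nearer RFB in 16. The first set held 10 genes higher in WFB and 3 higher in RFB, and the second held 7 and 9. In 3 genes, OsR498G0408431100.01, OsR498G0408431700.01 and OsR498G0204888400.01, R998 was nearer WFB and R308 nearer RFB throughout. The reverse occurred in 0 genes, and the assignment changed with the tissue in 28.

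The difference between WY and RY was itself compared between the 3 tissues. It was called for 12 of the 60, where 5.75% of all genes tested and 7.8% of those meeting the level minimum were called. Of these 12 genes, 7 were higher in WFB and 5 were higher in RFB. For OsR498G0306190000.01 the log2 difference was 0.26 (SE 0.13) in seedlings, 2.42 (SE 0.14) in young panicles and 0.72 (SE 0.13) in filling panicles, with an edgeR adjusted p of 1.55e-13 for a difference between tissues. In seedlings all lines expressed it, at 8.20 to 20.7 CPM, whereas in young panicles WFB and its hybrids held more than 4 CPM and no library of another line reached 2. OsR498G0203194400.01 had 0.81 (SE 0.11), -0.22 (SE 0.10) and 0.33 (SE 0.12), with an edgeR adjusted p of 1.31e-05.

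Of the genes higher in RFB, OsR498G0714935100.01 had log2 differences of -0.35 (SE 0.07), 0.71 (SE 0.09) and -0.12 (SE 0.10) between WY and RY, with an edgeR adjusted p of 8.88e-08 between tissues. OsR498G1018865300.01 had -0.97 (SE 0.19), 1.55 (SE 0.47) and -0.31 (SE 0.21), with an edgeR adjusted p of 0.000577. For both, RY308 lay below WY308 in young panicles, as given above, and its part in the difference between tissues was not tested.

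WR, the cross of WFB with RFB, was placed on a scale on which the RFB mean is 0 and the WFB mean is 1. These parents chose the genes, so the positions are a description. The WR mean lay between the parental means in 50, 49 and 46 of the 60 in seedlings, young panicles and filling panicles, and in 39 genes in all 3 tissues. All 3 WR libraries lay between the parental means in 29, 38 and 35 genes. The median position was 0.58, 0.47 and 0.40, and in the 18 genes of at least 2-fold difference it was 0.55, 0.49 and 0.44, with a range of 0.13 to 0.84 over the tissues. In CPM, the difference between WY and RY was a median 0.46, 0.35 and 0.42 of the difference between WFB and RFB.

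**Figure D3:**
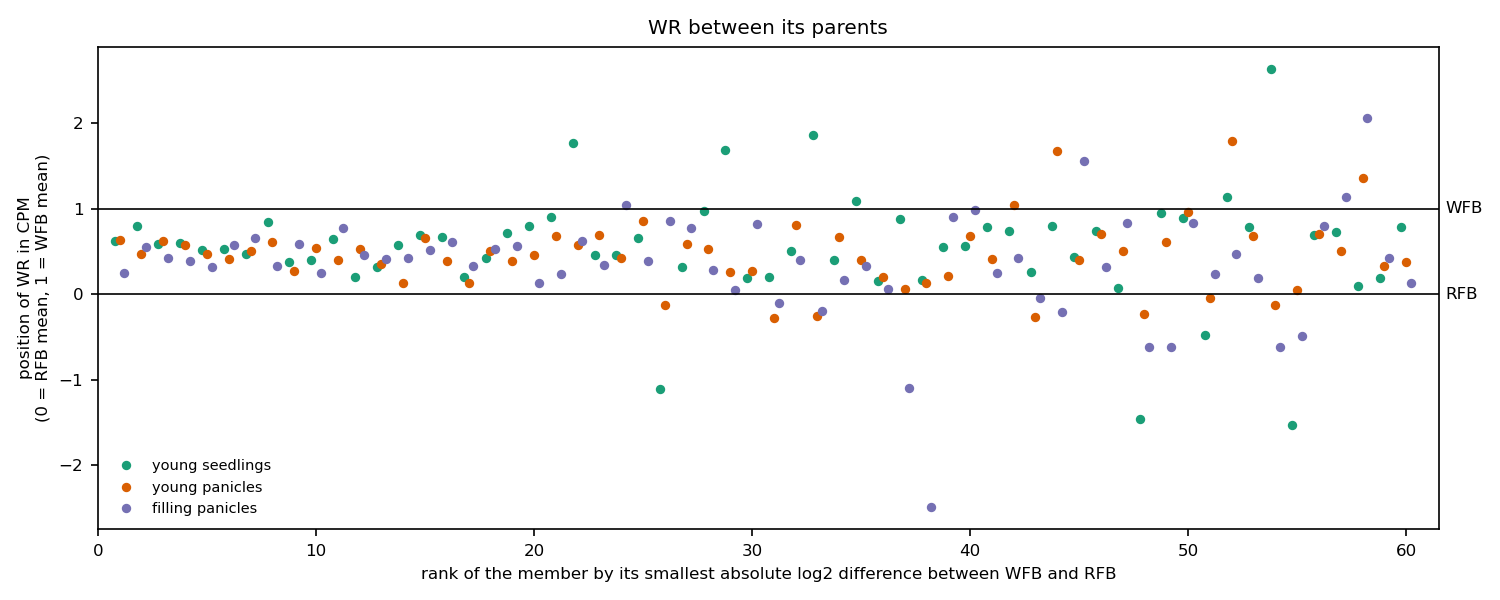
Position of the WR mean in CPM between the RFB mean (0) and the WFB mean (1) on the y axis, for the 60 genes in order of the smallest absolute log2 difference between these parents (x axis). Colours are tissues. The first 20 genes lie within the parental range in each tissue and the positions beyond it belong to later ranks, where the parental difference is smaller.

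By the mean position over the 3 tissues, OsR498G0714704400.01 and OsR498G0408790300.01 were lowest and OsR498G0917254300.01 and OsR498G1018865300.01 highest, while in a single tissue other genes reached up to 2.64. OsR498G0714704400.01 had positions of -1.47, -0.24 and -0.61. Its WR libraries held 6.54, 1.94 and 0.405 CPM in seedlings, where WFB held 8.57, 10.1 and 8.14 and RFB 9.74, 5.17 and 4.63, so WR overlapped RFB. OsR498G0408790300.01 was within the range in seedlings (0.17) and young panicles (0.14) but at -2.49 in filling panicles. There WR held 20.1, 14.1 and 35.2 CPM, above RFB (10.6, 13.8 and 11.3) and WFB (5.96, 8.79 and 7.41) without overlap.

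Of the highest, OsR498G0917254300.01 had positions of 0.10, 1.37 and 2.07, but its WR libraries overlapped those of WFB in each tissue. OsR498G1018865300.01 had 1.14, 1.80 and 0.48. In filling panicles its WR libraries held 52.1, 53.6 and 40.7 CPM, between WFB (19.1, 26.5 and 20.5) and RFB (74.2, 78.5 and 66.7).

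The 60 genes were less abundant for their length than the genes that met the level minimum. The means include WFB and RFB, which ranked the genes, so the comparison is a description. In FPKM, which divides by gene length as well as library size, the median of the means over 9 lines was 3.11, 5.65 and 4.32 in the 3 tissues for the 60 genes, and 8.02, 15.9 and 12.0 for the 14078 that met the level minimum. Their gene lengths were alike, with a median of 1514 bases (531 to 5377) against 1572. OsR498G0408545200.01 was the most abundant of the 60 per length in young panicles, at a mean of 637 FPKM, against 6.39 in seedlings and 27.01 in filling panicles. OsR498G0714935100.01 led in filling panicles at 270 FPKM and OsR498G0407841500.01 in seedlings at 112 FPKM.

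Tissues were compared in the 7 lines that the ranking did not use, by whether the 21 libraries of each tissue overlapped. Between young panicles and seedlings 12 of the 60 did not overlap, 7 higher and 5 lower in young panicles, where 44.8% of the genes meeting the level minimum did not overlap. Between filling and young panicles 4 of the 60 did not overlap, where 26.5% did not, and between filling panicles and seedlings 12, where 37.2% did not. Hybrids of WFB or RFB are among the 7 lines, so the ranking bears on the spread of the 60 within a tissue. Nothing is read from these shares. Among the 60, OsR498G0408545200.01 was 692 ± 232 CPM in young panicles and 14.3 ± 6.03 in seedlings (SD, n = 21 libraries of 7 lines). OsR498G0203190000.01 went the other way, at 2.25 ± 0.758 in young panicles and 93.5 ± 23.3 in seedlings.

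The 60 genes were spread over 11 identifier blocks, with 13 in block 1, 12 in block 7, 8 in block 2, 8 in block 4, 7 in block 3, 6 in block 10, 2 in block 5 and 1 each in blocks 8, 9, 11 and 12. As a share of the genes that met the level minimum they made up 1.01% in block 7, 0.809% in block 10, 0.61% in block 4 and 0.597% in block 1, against 0.426% over all 11 blocks and 0.098% in block 8. Within a block some of them stood near each other. Runs were not counted for other sets of genes, so whether this nearness is unusual was not tested. Allowing at most 10 gene models between neighbours, 22 of the 60 fell into 10 runs, and 4 of these runs held genes of 1 direction only. The longest held 3 genes, from OsR498G0408428400.01 to OsR498G0408431700.01 and from OsR498G0714931500.01 to OsR498G0714938300.01. OsR498G0714837000.01, near 0 in RFB, and OsR498G0714841800.01, near 0 in WFB, stood in 1 run of 10 gene models.

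With at most 100 gene models between neighbours, a width chosen after seeing the data, 39 of the 60 fell into 9 runs. For this width too, no other set of genes was counted. The one with most members lay in block 1 from OsR498G0102108700.01 to OsR498G0102190000.01 and held 8 of the 60 among 147 gene models, 60 of which met the level minimum. All 8 were higher in WFB, and in 6 of them R998 and R308 were both nearer WFB in all 3 tissues. Of the 8, the numbers called between WY and RY with the parental sign were 4, 5 and 3 in seedlings, young panicles and filling panicles. Over all 60 they were 23, 33 and 18, and 1.92%, 14.8% and 0.353% of all genes tested were called. Nothing is read from the counts of this run. Genes in a run may share reads where they are near-identical copies, as the counting method is not stated.

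**Figure D4:**
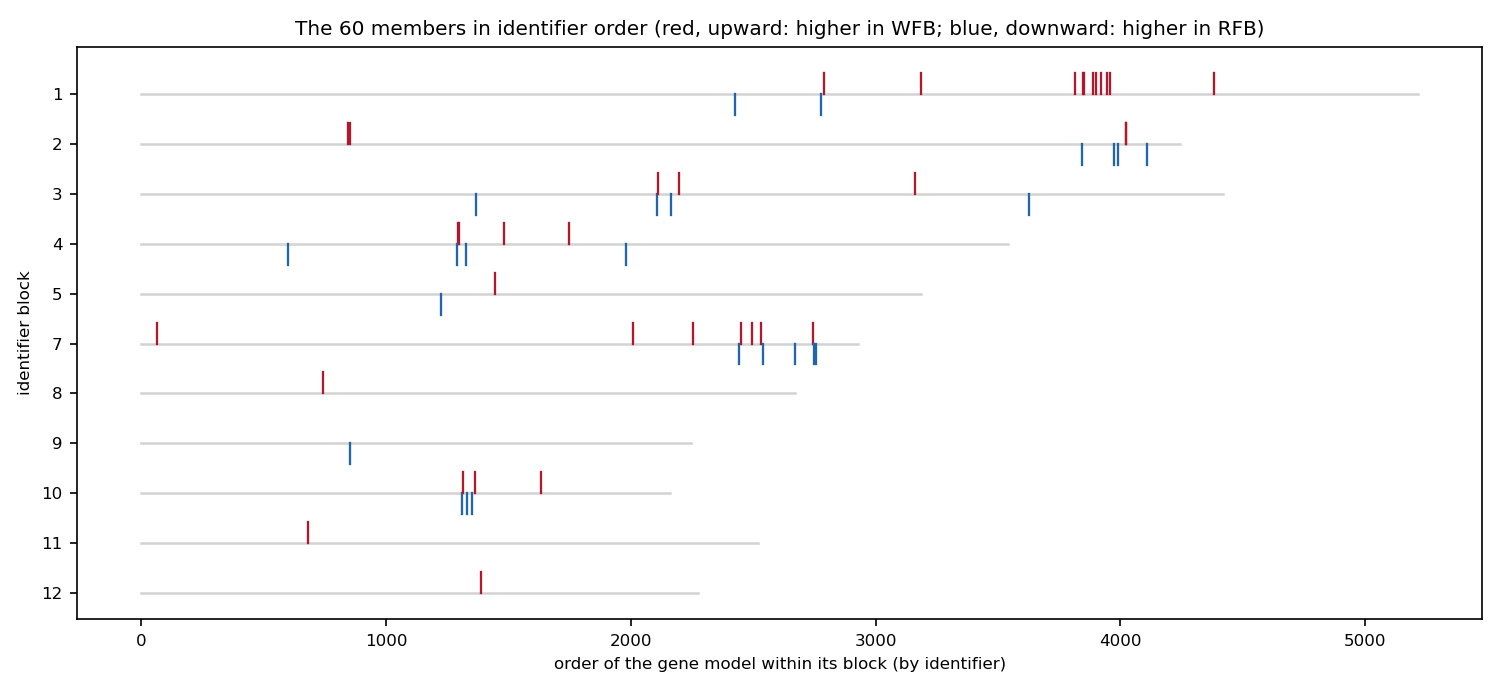
The 60 genes in the order of gene models within each identifier block (x axis, number of the model; y axis, block). Red strokes upward are higher in WFB and blue strokes downward are higher in RFB. All 11 red strokes of block 1 lie beyond its 2 blue ones, and 8 of them stand close together.

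The gene models around the 60, 10 on each side, were called more often than those elsewhere in comparisons of the same lines. Of 614 such neighbours tested in seedlings, 6.51% differed between WFB and RFB, against 0.893% of the other models outside blocks 00 and 06. The shares were 27% and 20.6% in young panicles and 3.85% and 0.152% in filling panicles. Between the WY and RY hybrids they were 3.91% and 1.58% in seedlings, 24.1% and 19.6% in young panicles, and 0.997% and 0.112% in filling panicles. The share was thus higher beside the 60 in both comparisons and in each tissue, and no test was made of it. The WFB and RFB libraries ranked the 60 and so placed these neighbours, so the shares between WFB and RFB are a description. Between WY and RY in filling panicles the calls were few, at 7 of 702 neighbours and 25 of 22409 other models.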

How the data were processed

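Raw read counts per gene model and FPKM values were deposited by the authors for 81 libraries. Libraries were stranded and depleted of ribosomal RNA, per the labels' protocols, and HISAT2 is named in the submitters' processing notes. Its version, the counter, the build and the annotation were not given in the sources used here. FPKM values deposited by the authors were used only for gene length and levels per length.

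The 60 members, the lists and the tests were chosen with earlier results of these data known. Block 00 was left out. CPM are counts scaled to the total of the rest of the library, with no further scaling. In each tissue, edgeR 4.0.16 (R 4.3.3) fitted a quasi-likelihood model with 1 mean per line to 27 libraries, after filterByExpr and TMM scaling, leaving 21751 (seedlings), 24636 (young panicles) and 25224 genes (filling panicles). Tissues were compared in 1 model of 81 libraries and 27379 genes. P-values are two-sided, apart from those between tissues, which come from an F test of the contrasts between tissues taken jointly. All were adjusted by the Benjamini-Hochberg method over all genes tested, with a threshold of 0.05. The standard error is the log2 difference divided by the square root of its F value. The scripts were tested on simulated data.

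Named genes were at most 2 per direction in each comparison: those with the largest difference among called genes without overlap between the groups, the smallest p for the interaction in each direction and between tissues, the extreme mean WR positions, and the ends of the longest runs. OsR498G0102190000.01, OsR498G0408545200.01, OsR498G0407841500.01 and further values of named genes in other tissues were added after the data were seen. The 81 within-group library pairs had chi-square values of 5.59 to 292 per degree of freedom, beyond sampling noise, and each library counted once. Alternatives included DESeq2 1.42.0, other scaling and filters, other libraries in the fit, and each replicate left out. Summaries were made in Python 3.11.15 with pandas 2.3.3 and figures with matplotlib 3.10.9.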

Additional observations from a re-analysis of the deposited data

Results flagged for a closer look

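The log2 difference between WY and RY differed between the R998 and the R308 crosses by an interaction test (edgeR) for the genes named by the rule. For OsR498G0204888400.01 in seedlings the interaction was -8.27 (adjusted p 3.86e-07 by edgeR), a fitted value that depends on the prior count because WY998 had no count. For OsR498G0408431700.01 in young panicles it was -7.70 (edgeR adjusted p 1.59e-11), with RY308 at 0.0275, 0 and 0 CPM and the same dependence. For OsR498G0714841800.01 in young panicles it was 0.95 (edgeR adjusted p 0.00823), the gene in which R998 exceeded R308 in that tissue and not in the others. In CPM, WY and RY of these genes stood about as far apart in both crosses, which was not tested. The means of WY998 and RY998, then WY308 and RY308, were 11.4 and 30.1, then 4.47 and 23.7 for OsR498G0714841800.01. They were 10.99 and 5.66, then 5.18 and 0.00917 for OsR498G0408431700.01. For OsR498G0204888400.01 in seedlings they were 0 and 5.25, then 4.81 and 10.9. In filling panicles the interaction was 1.06 for OsR498G0306830400.01 and -2.33 for OsR498G0408683900.01, whose R998 and R308 parents were not called as different there.

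Between tissues, the difference between WY and RY differed for OsR498G0306190000.01 (edgeR adjusted p 1.55e-13), OsR498G0203194400.01 (1.31e-05), OsR498G0714935100.01 (8.88e-08) and OsR498G1018865300.01 (0.000577). In the last 2 of these, the young panicle libraries of RY308 lay below all those of WY308 and overlapped those of WR, and their part in the result was not tested.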

How the results depend on the processing

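Under the alternatives run, no log2 difference by which a gene was named changed sign. These were differences between WY and RY, between R998 and R308 and in the interaction. Counts were compared by size and tests between tissues by adjusted p, so neither could show a change of direction. In filling panicles 11 of the 60 were called between WY and RY when only the 4 hybrids entered the fit. Between R998 and R308, 5 were called when only these lines entered it. Both fits hold fewer libraries and leave out WFB and RFB. Leaving out each replicate gave 22 to 23, 29 to 34 and 12 to 20 calls between WY and RY in seedlings, young panicles and filling panicles. Calls in both crosses ran from 9 to 12, 12 to 17 and 7 to 12, with 7 without WY998 replicate 7, RY998 replicate 9 or RY308 replicate 8, and interaction calls from 3 to 4, 5 to 9 and 10 to 15. Calls between R998 and R308 ran from 10 to 16, 10 to 13 and 10 to 16, with 16 in filling panicles without R998 replicate 9. The fit between tissues was refitted with the hybrids only, a choice made after seeing the data, and gave 7 to 11 calls, with 7 without RY998 replicate 6. The cause was not tested.

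DESeq2 called 26, 35 and 22 between WY and RY. Over all genes, calls between WY and RY went to 729 with DESeq2 from 454 in seedlings, and in filling panicles to 160 with DESeq2, 56 with hybrids only, 60 without RY998 replicate 9 or RY308 replicate 7 and 202 without RY308 replicate 9, from 92. Interaction calls went to 33 with DESeq2 from 20 in seedlings and to 1673 with hybrids only from 2626 in young panicles. Calls between R998 and R308 in filling panicles went to 2062 with these lines only from 5340, and those between tissues to 1005 with hybrids only and without WY308 replicate 5 from 1575.

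On average, libraries of the same replicate number did not deviate together (mean correlation of deviations -0.0052, -0.0085 and -0.028 in the 3 tissues). Single pairs ran from -0.442 to 0.56, from -0.521 to 0.455 and from -0.647 to 0.663, so the mean does not exclude links between some libraries. With a replicate block 23, 33 and 17 genes were called between WY and RY, 13, 16 and 9 in both crosses, 4, 6 and 14 in the interaction, 12, 15 and 12 between R998 and R308, and 9 between tissues.

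The list itself kept 59 and 57 of its 60 genes with a pseudocount of 0.1 and 1, 46 and 39 with a minimum of 1 and 5 CPM, 48 with block 00 kept, 46 with TMM-scaled CPM, and 51 to 57 without 1 library. The 41 genes present in every list without 1 library had 18, 27 and 17 calls between WY and RY. With TMM-scaled CPM the WR median position was 0.59, 0.46 and 0.47. Genes under a few CPM are limited by depth.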
